A study of Mus musculus with 9 samples.

Results

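The IL-2 receptor is built from 3 chains, encoded in the mouse by Il2ra, Il2rb and Il2rg. The genes were taken by symbol, 3 of the 23992 gene symbols in the tables, and each had 1 transcript. Their levels were compared between regulatory T cells (Tregs) of BALB/c mice in 3 groups of 3 RNA-seq libraries. The ortho IL-2 group received 2000000 IU/mL of orthogonal IL-2, an engineered cytokine meant for an engineered receptor, for 4 hours. The WT IL-2 group received 20000 IU/mL of wild-type IL-2 for the same 4 hours, and the no IL-2 group received neither. The ortho dose was thus 100 times the WT dose in IU/mL, so responses to the cytokines were compared at unmatched doses.

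All 3 groups shared what came before, per the treatment protocol in the labels. Foxp3GFP+ Tregs, from spleens, carried a transduced orthogonal IL-2 receptor beta chain joined to a human EGFR tag (hEGFR-oIL-2Rβ). For 48 hours they were cultured on beads coated for CD3/CD28 in hIL-2 at 1000 IU/mL. Cells bearing the tag were then selected magnetically and rested overnight with no hIL-2. No group lacks the transduced chain, so responses of untransduced cells were not measured. The labels do not state that libraries of a group come from separate cultures or mice, so p-values reflect only the spread between these libraries, which may be technical.

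IL-2 binds a receptor in which the alpha chain (CD25, Il2ra) captures the cytokine and the beta chain (CD122, Il2rb) and common gamma chain (CD132, Il2rg) carry the signal. The cytoplasmic part of the beta chain works with the kinase JAK1 and that of the gamma chain with JAK3, and the pair activates the transcription factor STAT5. Tregs are known for constitutive CD25, by which they take up IL-2 that other T cells secrete. The beta chain also serves IL-15, and the gamma chain also serves IL-4, IL-7, IL-9, IL-15 and IL-21.

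Counted reads, from 1 transcript per symbol, numbered between 16581624 and 58182835 per library. All 13 Treg and T cell markers examined were abundant enough to be tested, and their summed level, as TMM-scaled CPM, was 7548 to 7677 with ortho IL-2, 7455 to 7683 with WT IL-2 and 7637 to 7717 without IL-2. Within that sum the markers moved both ways. Of all genes tested, 28.5% were called higher and 27.4% lower with ortho IL-2, and 25% and 22.9% with WT IL-2. In each IL-2 group against no IL-2, 4 of the 13 markers were called higher, 7 lower and 2 were not called. Foxp3, which defines Tregs, was among those higher (log2 0.78 with ortho IL-2 and 0.70 with WT IL-2), and the Treg genes Ctla4 (-0.53 and -0.51), Ikzf2 (-0.35 and -0.29) and Tigit (-0.64 and -0.64) and the T cell gene Cd4 (-0.50 and -0.52) were among those lower. Markers of cells that also carry CD122 were scarce. The 7 NK cell markers summed to 8.49 to 9.18 CPM with ortho IL-2, 8.31 to 8.96 with WT IL-2 and 8.19 to 10.02 without IL-2, with Klra8 at 0 reads in every library and Ncr1 at 4 reads at most. Nkg7, the only NK marker abundant enough to be tested, was at 3.63 CPM with ortho IL-2, 3.41 with WT IL-2 and 2.22 without IL-2 and was called higher in both comparisons (log2 0.71 and 0.603, edgeR adjusted p = 0.00353 and 0.00962), and its part in the results below was not tested. The CD8 T cell markers Cd8a and Cd8b1 together reached 10.2 to 11.2 CPM with ortho IL-2, 9.60 to 11.2 with WT IL-2 and 7.66 to 8.68 without IL-2, and their part in the results was not tested. The B cell, myeloid and erythroid markers summed to at most 6.58, 14.2 and 0.371 CPM in any library, the myeloid sum being 8.86 to 8.95 with ortho IL-2, 7.87 to 9.81 with WT IL-2 and 11.3 to 14.2 without IL-2. Reads outside the transcripts counted made up 25.7% to 33.0% with ortho IL-2, 29.1% to 34.9% with WT IL-2 and 38.9% to 43.3% without IL-2, so this share separates both IL-2 groups from no IL-2 and overlaps between ortho and WT IL-2.

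Sequence around the start sites is shown for Il2ra and Il2rg. RefSeq promoter windows on GRCm38.p6, 250 bases before to 50 after the start site, matched 2 of the 3 chains. The windows are chr2:11642542-11642841 on the forward strand for Il2ra and chrX:101268206-101268505 on the reverse strand for Il2rg, and capitals mark matches to the motifs named below.
Il2ra: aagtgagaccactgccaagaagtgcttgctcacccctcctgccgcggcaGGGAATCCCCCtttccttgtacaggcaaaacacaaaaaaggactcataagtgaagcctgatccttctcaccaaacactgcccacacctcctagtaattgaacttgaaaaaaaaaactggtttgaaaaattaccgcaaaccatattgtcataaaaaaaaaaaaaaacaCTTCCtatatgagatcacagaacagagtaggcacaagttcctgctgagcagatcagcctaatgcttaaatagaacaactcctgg
Il2rg: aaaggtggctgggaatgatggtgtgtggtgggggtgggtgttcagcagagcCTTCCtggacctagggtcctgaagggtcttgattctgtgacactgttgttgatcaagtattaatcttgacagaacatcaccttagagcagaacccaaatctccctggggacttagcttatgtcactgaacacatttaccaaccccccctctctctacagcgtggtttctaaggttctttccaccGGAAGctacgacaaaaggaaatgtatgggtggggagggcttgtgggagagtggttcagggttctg

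Both strands were searched for 3 motifs. The Il2ra window holds 2 overlapping matches to the NF-kappaB form (GGG, any 5 bases, CC), at positions -201 and -200 from the start site, and the Il2rg window holds 0, with 50.8% of 32851 promoter windows of this length holding one. The ETS core GGAAG was found once in Il2ra, at -34, and at 2 places in Il2rg, at -199 and -15, and 71.4% of windows hold it. TTCNNNGAA, the form bound by STAT factors, was in neither window and in 8.3% of all windows. These matches are letters only and no binding was measured.

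Il2ra, on the forward strand of chromosome 2 (11642807 to 11693193, GRCm38), was the chain that changed most. It had 5040.4, 4890.0 and 4605 CPM with ortho IL-2, 4843, 5131 and 5009 CPM with WT IL-2, and 1206, 1224 and 1219.9 CPM without IL-2. The IL-2 groups overlapped each other, and every one of their libraries lay far above those without IL-2, which were within 1% of their mean (coefficient of variation 0.800%). Il2ra rose 3.98-fold with ortho IL-2 (log2 fold change 1.99, SE 0.05, edgeR adjusted p = 3.09e-09) and 4.11-fold with WT IL-2 (2.04, SE 0.05, edgeR adjusted p = 2.69e-09). Among 10702 genes tested it ranked 87th and 75th from the largest rise. Calls were common. With ortho IL-2, 56% of all genes were called and 28.5% called higher, and with WT IL-2 47.9% and 25%, whereas rises or falls of at least 2-fold were called for 6.27% and 4.69%. In bulk RNA a change in message per cell cannot be told apart from a change in the share of cells that express it.

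Il2ra was among the genes with the most reads in these cells, a measure that grows with transcript length. By reads it ranked 2nd of all genes in each of the 6 libraries with IL-2. It took 0.471% to 0.505% of counted reads with ortho IL-2 and 0.491% to 0.506% with WT IL-2. Without IL-2 it took 0.118% to 0.121% and ranked between 55 and 60 by reads. By RPKM, which accounts for length, it ranked between 24 and 39 with IL-2 and between 191 and 196 without IL-2. The 19948 to 273809 reads behind these values put the counting error at or below 0.708% per library (counting error only), less than the spread between replicates in the IL-2 groups.

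Il2rb, on the reverse strand of chromosome 15 (78479256 to 78495271), rose somewhat less and varied more. It had 1554, 1362 and 1578 CPM with ortho IL-2, 1613, 1278 and 1314 CPM with WT IL-2, and 437.9, 467 and 474 CPM without IL-2. The IL-2 groups again overlapped each other and lay wholly above the group without IL-2. Such non-overlap was seen for 66.1% of genes with ortho IL-2 and 58.8% with WT IL-2. The rise was 3.26-fold with ortho IL-2 (log2 1.70, SE 0.09, edgeR adjusted p = 3.89e-07) and 3.05-fold with WT IL-2 (1.61, SE 0.09, edgeR adjusted p = 5.53e-07). Il2rb ranked 127th and 146th from the largest rise among the 10702 genes tested, of which 28.5% and 25% were called higher. All cells carried a transduced form of this chain. Its reads may align to Il2rb, so endogenous and transduced messages cannot be told apart, and the value is that of both together.

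The spread of Il2rb within the IL-2 groups followed particular libraries. The highest WT IL-2 value was in replicate 1 and the highest ortho IL-2 value in replicate 3, and the coefficient of variation was 7.92% with ortho IL-2, 13.1% with WT IL-2 and 4.16% without IL-2. The Il2rb transcript has a GC content of 53.9%, against 44.4% for Il2ra and 49.0% for Il2rg. The dependence of counts on GC content was estimated over all tested genes. On the log2 scale the fitted offset of Il2rb was 0.15 in ortho IL-2 replicate 3 and 0.13 in WT IL-2 replicate 1. Without IL-2 its offsets were -0.09, -0.07 and -0.08. The fit took all 9 libraries together, so the offsets may also hold differences between groups. The cause of the spread was not tested. With those offsets removed, the coefficient of variation was 4.67% with ortho IL-2, 6.13% with WT IL-2 and 3.62% without IL-2, and the log2 rises were 1.55 and 1.51 with ortho and WT IL-2.

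Il2rg, on the reverse strand of the X chromosome (101264378 to 101268255), did not rise with the other chains. It had 429.6, 424 and 446 CPM with ortho IL-2, 435.2, 458 and 444 CPM with WT IL-2, and 478, 497 and 490.2 CPM without IL-2. Each IL-2 library lay below all those without IL-2, but the distance was small, and non-overlap of this kind was seen for 66.1% of genes with ortho IL-2 and 58.8% with WT IL-2. The log2 fold change was -0.17 with ortho IL-2 (SE 0.04, edgeR adjusted p = 0.00625) and -0.13 with WT IL-2 (SE 0.04, edgeR adjusted p = 0.026), when 27.4% and 22.9% of genes were called lower.

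The fall of Il2rg depends on what the libraries are scaled to. With the reads that the authors' RPKM values are divided by as library size, which include reads outside the transcripts counted, Il2rg lay at 0.11 with ortho IL-2 and 0.08 with WT IL-2 and was not called (edgeR adjusted p = 0.279 and 0.412). On that scale the median gene itself stood at 0.29 and 0.22 and 85.8% and 83.8% of calls were higher, against 51.0% and 52.2% with TMM. Relative to the median gene, Il2rg was at -0.19 with ortho IL-2 and -0.14 with WT IL-2 on the divisor scale, and at -0.18 and -0.14 with TMM. With WT IL-2 it was also not called without WT IL-2 replicate 1 or 3 or no IL-2 replicate 2 or 3 (edgeR adjusted p = 0.051, 0.0681, 0.0853 and 0.0723). The share of reads outside the transcripts counted separates the IL-2 groups from no IL-2. A fit with this share as a covariate cannot fully part it from IL-2. That fit gave Il2rg -0.26 (SE 0.09) with ortho IL-2 and -0.20 (SE 0.08) with WT IL-2, not called, where the SE was 0.04 without the covariate. Il2ra (2.06 and 2.09) and Il2rb (1.61 and 1.54) were then still called higher with ortho and WT IL-2.

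**Figure D1:**
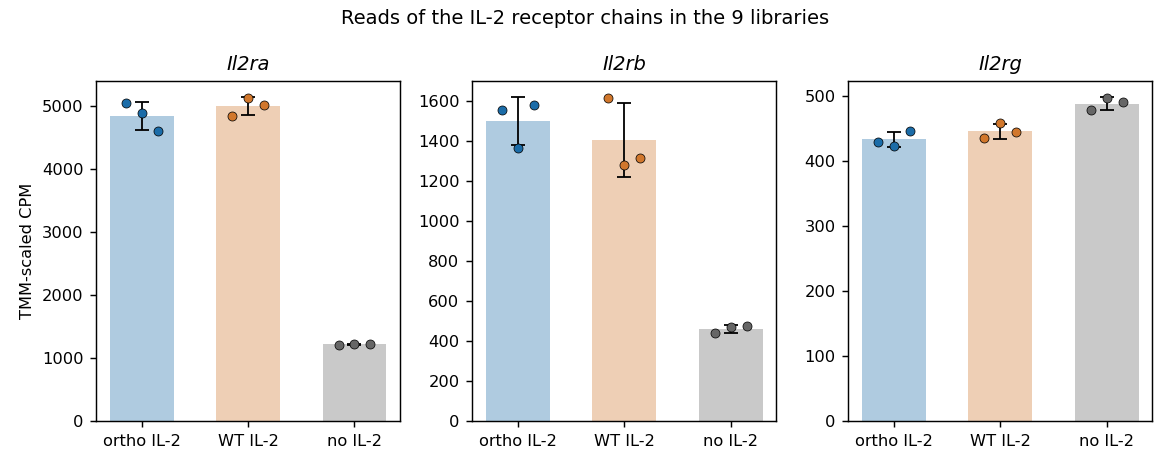
TMM-scaled CPM (vertical axis, from 0) of the 3 chains in each of the 9 libraries (points), with group means (bars) and SD (error bars), for ortho IL-2, WT IL-2 and no IL-2. Il2ra averages 4845, 4994 and 1217 CPM, Il2rb 1498, 1402 and 459.6 CPM, and Il2rg 433.1, 446 and 488 CPM.

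**Figure D2:**
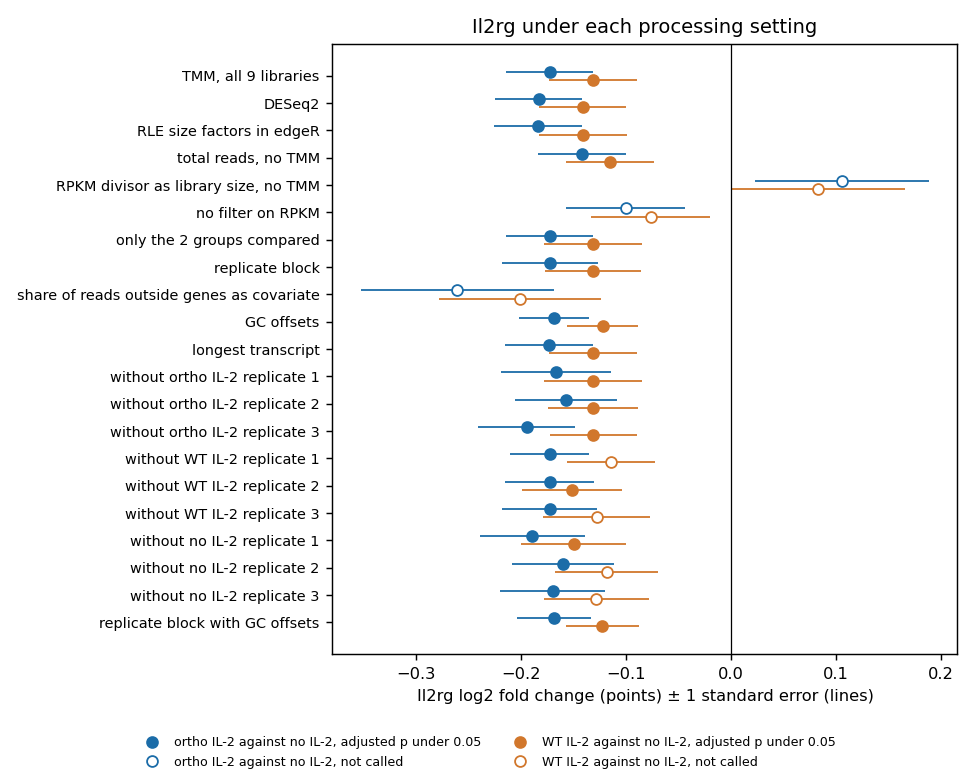
Log2 fold change of Il2rg (horizontal axis, points, with lines of 1 standard error) with ortho IL-2 and WT IL-2 against no IL-2 under each processing setting; filled points have an adjusted p under 0.05. The values lie between -0.26 and -0.08 except with the RPKM divisor as library size, where they are 0.11 and 0.08.

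Ortho and WT IL-2 were next compared directly, to ask whether the engineered and the natural cytokine leave the chains at different levels. No chain was called. Il2ra differed by -0.04 on the log2 scale, ortho over WT, with a 95% interval of -0.15 to 0.06. Il2rb differed by 0.10 (interval -0.11 to 0.30) and Il2rg by -0.04 (interval -0.13 to 0.05), all with an edgeR adjusted p of 0.909. A difference within these bounds cannot be told from 0 with these libraries. None of the 10702 genes was called in this comparison by edgeR or by DESeq2, and 149 genes (1.39%) had an unadjusted edgeR p under 0.05. Values of ortho and WT IL-2 overlapped for all 3 chains, and 4.65% of genes had no overlap.

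**Figure D3:**
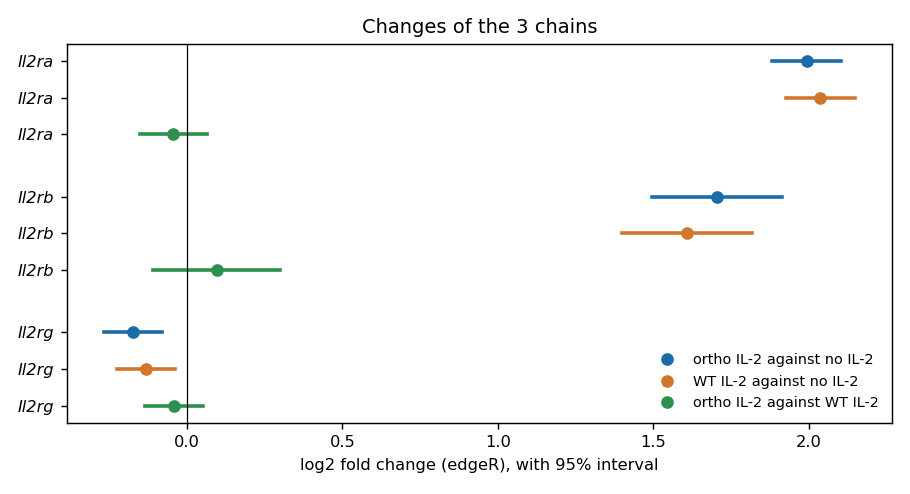
Log2 fold changes (horizontal axis) of the 3 chains by edgeR, as points with 95% intervals, for ortho IL-2 against no IL-2, WT IL-2 against no IL-2 and ortho against WT IL-2. Il2ra and Il2rb lie between 1.61 and 2.04 in both comparisons with no IL-2, Il2rg lies at -0.17 and -0.13, and the intervals of ortho against WT IL-2 span 0 for every chain.

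The proportion of the chains to each other was examined with the authors' RPKM values, which account for transcript length (4428 bases for Il2ra, 2696 for Il2rb and 1612 for Il2rg). A ratio taken within a library does not depend on how libraries are scaled. Il2ra stood at 764, 774 and 789.5 RPKM with ortho IL-2, 764, 810.2 and 726 RPKM with WT IL-2, and 152, 167 and 165 RPKM without IL-2. Il2rb stood at 387, 354 and 444 RPKM with ortho IL-2, 418, 331 and 313 RPKM with WT IL-2, and 90.4, 104 and 105 RPKM without IL-2. Il2rg stood at 179, 184 and 210.0 RPKM with ortho IL-2, 189, 199 and 177 RPKM with WT IL-2, and 165, 186 and 182 RPKM without IL-2. In each of the 6 IL-2 libraries the order was Il2ra, Il2rb, Il2rg from highest to lowest. Without IL-2, Il2rg was the highest in each library and Il2rb the lowest, and the ranges of Il2rg and Il2ra overlapped across libraries although Il2ra was the lower within each.

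By RPKM, Il2rg was thus the lowest of the 3 with IL-2 and the highest without it, where Il2ra lay close below. RPKM is not adjusted for GC content. Reads of Il2rb may include the transduced message, whose part in its place and ratios was not tested. The ratio of Il2ra to Il2rg was 4.08 ± 0.278 with ortho IL-2, 4.08 ± 0.0294 with WT IL-2 and 0.907 ± 0.0111 without IL-2 (SD, n = 3 each). The ratio of Il2rb to Il2rg was 2.07 ± 0.127 with ortho IL-2, 1.88 ± 0.292 with WT IL-2 and 0.563 ± 0.0149 without IL-2. For both ratios all 6 IL-2 libraries lay above all 3 without IL-2, by 4.49-fold and 3.49-fold on average (two-sided exact permutation p = 0.0238, the smallest that 6 against 3 allows, and 0.0238 after Benjamini-Hochberg adjustment over 3 ratios).

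Reads of the 2 chains that rose did not rise equally. Those of Il2rb may include the transduced message, whose part in this ratio was not tested. Il2ra to Il2rb was 1.98, 2.19 and 1.78 with ortho IL-2, 1.83, 2.45 and 2.32 with WT IL-2, and 1.68, 1.596 and 1.57 without IL-2. The ratio was higher in 6 of 6 IL-2 libraries than in any library without IL-2, by 1.29-fold on average (log2 difference 0.36, two-sided exact permutation p = 0.0238, adjusted 0.0238). It lay nearest the no IL-2 values in ortho IL-2 replicate 3 and WT IL-2 replicate 1, where the Il2rb GC offsets were 0.15 and 0.13. In ortho IL-2 replicate 1 that offset was 0.06. With offsets the log2 difference was 0.57. Without IL-2 the offsets were negative for Il2rb and positive for Il2ra in each library, so they may hold differences between groups. The part of GC content in this ratio was not tested. Taken singly, each IL-2 group of 3 against the 3 without IL-2 gave p = 0.10 by the exact permutation test for all 3 ratios, the smallest possible. Between ortho and WT IL-2 the exact p was 0.40, 1.00 and 0.40 for Il2ra to Il2rb, Il2ra to Il2rg and Il2rb to Il2rg.

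**Figure D4:**
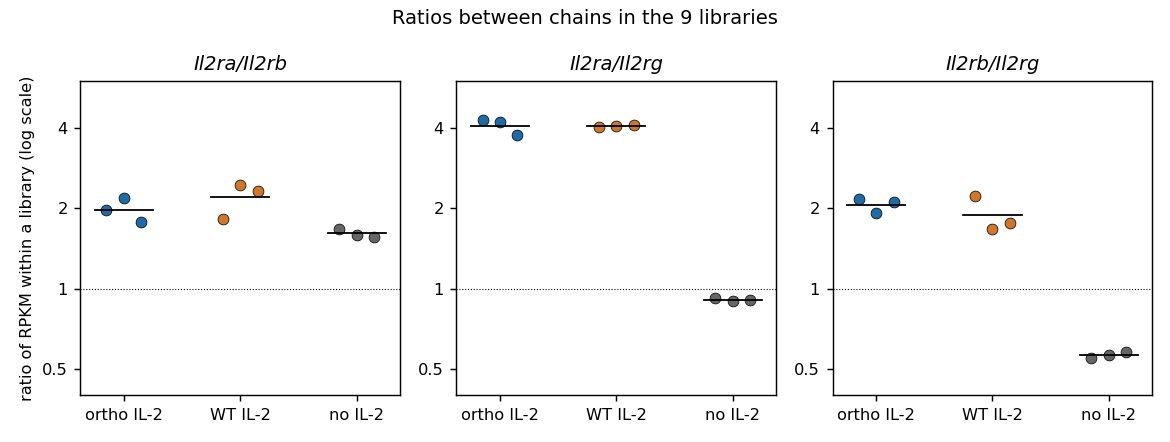
Ratio of RPKM between chains within each library (points, log2-spaced vertical axis, dotted line at 1), with group means as bars, for ortho IL-2, WT IL-2 and no IL-2. Il2ra to Il2rg and Il2rb to Il2rg lie above 1 in all 6 IL-2 libraries and below 1 in all 3 without IL-2, while Il2ra to Il2rb lies above 1 throughout.

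Placed among 39 type I and type II cytokine receptor genes by mean RPKM, Il2ra was the highest in both IL-2 groups, and Ifngr1 stood above Il2rg in every group. With ortho IL-2 the order was Il2ra (776 ± 12.9), Il2rb (395 ± 45.8), Ifngr1 (369.7 ± 18.9) and Il2rg (191 ± 16.7, SD, n = 3 each). With WT IL-2 it was Il2ra (767 ± 42.0), Ifngr1 (361 ± 19.2), Il2rb (354 ± 56.2) and Il2rg (188 ± 11.0). Without IL-2 it was Ifngr1 (356 ± 17.2), Il2rg (178 ± 11.2), Il2ra (161 ± 8.33), Il7r (143 ± 5.99) and Il2rb (100.04 ± 8.38). Ifngr1 encodes the ligand-binding chain of the interferon gamma receptor, and with IL-2 its range overlapped that of Il2rb. The next receptor in either IL-2 group was Il4ra, at 60.004 ± 8.40 RPKM with ortho IL-2 and 54.7 ± 7.85 RPKM with WT IL-2. Among all tested genes Il2rg kept a similar place by RPKM, at rank 191 with ortho IL-2, 180 (98.3% of tested genes below it) with WT IL-2 and 181 without IL-2, whereas Il2ra stood at 33, 28 and 192 and Il2rb at 103, 107 and 325.

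**Figure D5:**
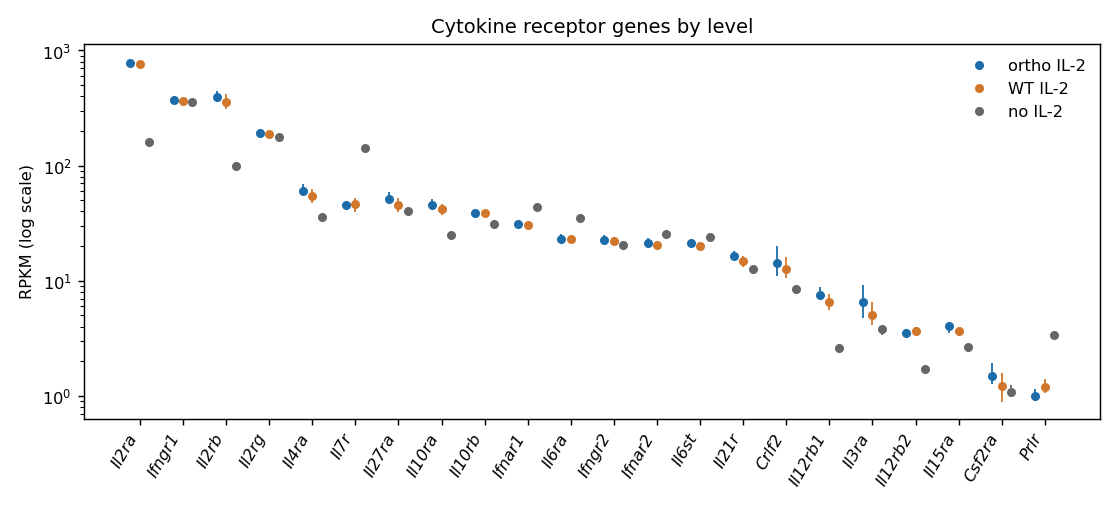
RPKM (log axis) of the 22 cytokine receptor genes that averaged at least 1 RPKM in some group, ordered by their WT IL-2 mean; points are group means and lines run from the lowest to the highest library, for ortho IL-2, WT IL-2 and no IL-2. Il2ra stands highest with ortho IL-2 (776) and WT IL-2 (767) and behind Ifngr1 and Il2rg without IL-2 (161), and Il2rg stays between 178 and 191.

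Neighbouring genes were examined next. Within 100 kb of Il2ra, 4 genes were tested, of which 2 were called higher and 1 lower with ortho IL-2 and 1 higher and 1 lower with WT IL-2, all at log2 fold changes of -0.27 to 0.33. That is 3 of 4 and 2 of 4 called, where 56% and 47.9% of all genes were called with ortho and WT IL-2. The nearest tested gene, Il15ra, encodes the alpha chain for IL-15 and begins 12097 bases beyond Il2ra. It had 9.81 ± 0.700 CPM with ortho IL-2, 9.22 ± 0.532 CPM with WT IL-2 and 7.79 ± 0.842 CPM without IL-2, and was called higher with ortho IL-2 (log2 0.33, edgeR adjusted p = 0.0222) but not with WT IL-2 (0.24, edgeR adjusted p = 0.0816). The difference between the IL-2 groups was not called for it (edgeR adjusted p = 0.909).

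Near Il2rb, 3 of 4 tested genes were called higher in both comparisons, where 28.5% of all genes were called higher with ortho IL-2 and 25% with WT IL-2, and 4 genes are too few to set against those shares. C1qtnf6, a C1q and TNF related gene 28075 bases away, had 34.0 ± 4.16 CPM with ortho IL-2, 31.7 ± 4.08 CPM with WT IL-2 and 15.5 ± 0.863 CPM without IL-2. It rose 2.20-fold and 2.04-fold with ortho and WT IL-2 (edgeR adjusted p = 2.54e-05 and 5.13e-05). Kctd17 rose 1.598-fold and 1.55-fold, and Rac2, a small GTPase of blood cells, 1.197-fold and 1.16-fold. Around Il2rg, 1 of 4 tested genes was called, Foxo4, a FOXO transcription factor gene, which fell by 0.58 with ortho IL-2 and 0.61 with WT IL-2 on the log2 scale. Over all genes, 56% were called and 27.4% called lower with ortho IL-2, and 47.9% and 22.9% with WT IL-2. By gene spans, the annotation places Gm37881 over Il2ra and Gm20489 over Il2rg on the same strand, and no gene overlaps Il2rb. Whether these 2 genes share reads with the counted transcripts of the chains was not examined.

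Among 13 genes for ligands and partner receptors of the shared chains, with TSLP and its receptor chain Crlf2 included because TSLP shares Il7r and not the beta or gamma chain, 5 were abundant enough to be tested. The 7 ligand genes (Il2, Il15, Il4, Il7, Il9, Il21 and Tslp) were not among them, Il2 having 3 to 11 reads and Il15 8 to 33 reads per library. With ortho IL-2, 2 genes were higher, 1 lower and 2 not called, and with WT IL-2, 1 was higher, 1 lower and 3 not called. Over all genes 28.5% were called higher and 27.4% lower with ortho IL-2, and 25% and 22.9% with WT IL-2. The 5 tested genes are too few to set against those shares. Il7r, the alpha chain that pairs with the gamma chain for IL-7, fell by 1.93 with ortho IL-2 and 1.85 with WT IL-2 on the log2 scale (edgeR adjusted p = 1.63e-07 and 1.96e-07). Il4ra, which pairs with the gamma chain for IL-4, rose 1.37-fold and 1.303-fold (edgeR adjusted p = 0.00116 and 0.0035). Il21r was not called (0.11 and 0.01), and neither was Crlf2, the TSLP receptor chain (0.49 and 0.35). Il9r, at 22 to 102 reads, was not tested. The median over the 5 tested genes was 0.33 with ortho IL-2 and 0.24 with WT IL-2, against 0.01 and 0.01 over all genes.

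Of 16 genes for signalling directly below the receptor, 6 were higher, 7 lower and 3 not called with ortho IL-2, and 5 were higher, 7 lower and 4 not called with WT IL-2. Over all genes 28.5% were called higher and 27.4% lower with ortho IL-2, and 25% and 22.9% with WT IL-2. The medians of the 16 genes were 0.09 and 0.04, against 0.01 over all genes in each comparison. Jak1, the kinase of the beta chain, fell by 0.66 with ortho IL-2 and 0.63 with WT IL-2 on the log2 scale (edgeR adjusted p = 2.1e-06 and 2.78e-06). Jak3, the kinase of the gamma chain, had 274 CPM with ortho IL-2, 242 CPM with WT IL-2 and 179.6 CPM without IL-2, and was called higher with ortho IL-2 (0.61, edgeR adjusted p = 0.0109) but not with WT IL-2 (0.43, edgeR adjusted p = 0.0543). Between ortho and WT IL-2 it was not called (edgeR adjusted p = 0.909). Stat5b fell by 0.63 and 0.67 and Pik3r1, a regulatory subunit of PI3 kinase, by 0.46 and 0.396. The adaptor gene Gab2 rose 1.66-fold and 1.68-fold and the kinase gene Syk 1.603-fold and 1.62-fold.

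Feedback genes and other brakes on the receptor gave the same counts in both comparisons, 7 higher, 2 lower and 4 not called among 13, with medians of 0.23 and 0.22, against 0.01 over all genes in each. The shares of all genes called higher were 28.5% and 25%, and lower 27.4% and 22.9%, with ortho and WT IL-2. Cish, Socs1, Socs2 and Socs3 encode SOCS family inhibitors that STAT5 signalling induces, and all 4 were called higher. Their log2 rises were 3.02, 4.48, 1.51 and 2.11 with ortho IL-2 and 2.95, 4.37, 1.54 and 2.04 with WT IL-2. The ubiquitin ligase gene Cblb fell by 0.93 and 0.91 with ortho and WT IL-2 (edgeR adjusted p = 9.17e-08 and 1.09e-07).

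Of 26 genes for factors known to bind regulatory regions of the chains, 25 were tested, with 8 higher, 10 lower and 7 not called with ortho IL-2 and 7 higher, 7 lower and 11 not called with WT IL-2. The counts called higher lie close to the 28.5% and 25% of all genes called higher, and those called lower stand beside 27.4% and 22.9%. The medians of the 25 genes were -0.07 and -0.06, against 0.01 over all genes in each. The AP-1 genes Fos and Jun rose 3.16-fold and 1.95-fold with ortho IL-2 and 3.22-fold and 1.88-fold with WT IL-2, and Nfatc2, a calcium-responsive factor, rose 1.765-fold and 1.76-fold. Satb1, a chromatin organizer, fell by 0.75 with ortho IL-2 and by 0.70 with WT IL-2 on the log2 scale, and Stat5b fell as given above. The remaining factors are summarised by the counts.

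Finally, the tested genes whose pattern over the 9 libraries lay nearest to each chain were listed, by the root mean square difference of log2 CPM centred on each gene's mean. For Il2ra they were Itih5 (0.048), Myb (0.057), Ptpn9 (0.063), Naf1 (0.065) and Gnal (0.067), which rose 3.74-fold to 4.24-fold with ortho IL-2 and 3.84-fold to 4.39-fold with WT IL-2. For Il2rb they were Pglyrp2 (0.044), Celsr1 (0.052), Sema4a (0.056), Ecm1 (0.062) and Slc7a5 (0.065), a chain of a large neutral amino acid transporter, at 3.08-fold to 3.42-fold and 2.95-fold to 3.33-fold. The difference between Il2ra and Il2rb themselves was 0.22, while the genes listed were selected for the smallest differences. For Il2rg they were Dazap2 (0.021), Ckap2l (0.021), Scyl3 (0.022), Ifngr2 (0.022), the second chain of the interferon gamma receptor, and Psma1 (0.024), at log2 fold changes of -0.19 to -0.13 with ortho IL-2 and -0.14 to -0.10 with WT IL-2. The likeness is a description of these 9 libraries.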

How the data were processed

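Total RNA from the Tregs was made into mRNA libraries and sequenced, per the labels' protocols. Each deposited table gives, per the file headers, raw read counts and RPKM for 31682 RefSeq transcripts. In the deposited tables RPKM equals the count divided by transcript length and by 1 whole number per library, the RPKM divisor. The submitters' processing notes name mm10 and, as tools, edgeR, bedtools 2.25.0, SAMtools 0.1.8, TopHat2 and Bowtie2. Not given in the sources used here are their roles, the read counter and strand use, so antisense reads cannot be told apart.

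Each symbol was represented by its transcript of highest summed reads. The 10702 genes that reached an RPKM of 1 in 3 or more libraries were tested in edgeR 4.0.16 (R 4.3.3) by quasi-likelihood F-test, with TMM scaling and group means over all 9 libraries. P-values are two-sided and were adjusted by Benjamini and Hochberg's method across the tested genes, with a threshold of 0.05 and 95% intervals from a t distribution. The edgeR fit, without GC offsets, was run on simulated counts in which a small set of genes rose in the WT IL-2 group alone. Far more genes changed in these data, and in both directions, so that run does not vouch for the calls here. Levels are TMM-scaled CPM, and 3 reads correspond to 0.0516 to 0.181 CPM. Ratios of RPKM were tested by exact permutation (scipy 1.17.1). GC offsets were lowess fits over GENCODE M21 transcripts, known for 98.4% of tested genes. Alternatives included DESeq2 1.42.0, other scalings, a covariate, a replicate block and leaving out each library.

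Coordinates of genes are from GENCODE M21 (GRCm38, the build called mm10) and promoter sequences from RefSeq. The members and gene lists were chosen with earlier results of these data known. Genes named are the 3 chains, up to 5 genes with the smallest p from each of 4 lists plus others asked for by their role, neighbours within 100 kb, the 5 genes nearest in pattern to each chain, cytokine receptors ordered by level, and cell type markers. Of 139 listed symbols, 138 were in the tables. No same-group pair of libraries was within sampling noise (mean chi-square per gene 5.08 to 36.7, where 1 is sampling noise).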

Additional observations from a re-analysis of the deposited data

How the results depend on the processing

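Il2ra and Il2rb were called higher with ortho and WT IL-2 under all 20 alternatives, at log2 values of 1.96 to 2.27 and 2.02 to 2.251 for Il2ra and 1.55 to 1.98 and 1.496 to 1.82 for Il2rb. Il2rg with ortho and WT IL-2 turned to 0.11 and 0.083 with the RPKM divisor as library size, where ortho against WT IL-2 also turned to 0.02 for Il2ra (0.0166) and Il2rg (0.0228), the whole set of genes being shifted on that scale. Il2rg was not called without a filter on RPKM (-0.10 and -0.076). Nor was it called with the share of reads outside the transcripts counted as a covariate (-0.26 and -0.20), and the cause was not tested. The SEs were then 0.09 and 0.08, against 0.04 without the covariate. Leaving out each library gave Il2rg -0.19 to -0.16 with ortho IL-2, called throughout, and -0.15 to -0.11 with WT IL-2 (adjusted p = 0.025 to 0.0853). The covariate lowered the number of genes called to 1573 and 2130, against 5990 and 5122. No chain was called between ortho and WT IL-2 under any of the 20 alternatives. For the log2 ratios Il2ra to Il2rb, Il2ra to Il2rg and Il2rb to Il2rg, ortho IL-2 alone gave 0.29, 2.17 and 1.88, and WT IL-2 alone 0.44, 2.17 and 1.73, where the exact permutation test of 3 against 3 cannot go below p = 0.10. Leaving out each library gave 0.32 to 0.41, 2.15 to 2.19 and 1.77 to 1.85, where the exact p cannot pass 0.05 with 2 libraries without IL-2. With the replicate block the same ratios were 0.36, 2.17 and 1.80, with an exact p of 0.0741, the smallest that block allows. Deviations from group means correlated at -0.66 to 0.44 between same-numbered libraries (other pairs -0.57 to 0.60). Such correlations within groups of 3 depend on each other and do not settle whether numbers pair the samples. The block in edgeR left the calls of the 3 chains as they were (Il2rg -0.17 and -0.13 with ortho and WT IL-2). A block with GC offsets, chosen after seeing the data, changed no call of the chains either.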
